A study of Mus musculus with 20 samples.

Results

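The CC chemokines are small secreted proteins that draw leukocytes along a gradient, and 10 of their genes were described here in BV-2 microglia: the ligand genes *Ccl2*, *Ccl3*, *Ccl4*, *Ccl5*, *Ccl6*, *Ccl7*, *Ccl9*, *Ccl12* and *Ccl22*, and *Ccrl2*, the gene of an atypical receptor. They were taken by symbol, as 10 of the 55487 genes in the count table, from a list chosen with earlier results of these data known. RNA was sequenced from 20 cultures of BV-2, an immortalised mouse microglial line labelled as wild type (WT), in 4 groups of 5. Young cells were at low passage and aged cells had gone through long-term cultivation, and each was left untreated or received 100 ng/ml bacterial LPS for 6 hours. All groups share the line, its genotype and the medium, and each of the 5 labelled batches holds 1 culture of every group. The model is limited to a dividing cell line aged in a dish, and nothing in the sources used here says that the aged cultures were aged separately, so the p-values may cover only the spread between cultures of a common stock.

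Microglia, the resident macrophages of the brain, release CC chemokines within hours of sensing bacterial lipopolysaccharide (LPS) through Toll-like receptor 4, whose adaptors lead to NF-kappaB and to the interferon regulatory factors. The ligands fall into groups by the receptors they engage and the cells they attract. *Ccl2*, *Ccl7* and *Ccl12* encode ligands of CCR2 on monocytes, *Ccl3*, *Ccl4* and *Ccl5* attractants of macrophages and T cells, *Ccl6* and *Ccl9* rodent ligands of CCR1, and *Ccl22* a ligand of CCR4, while the product of *Ccrl2* binds chemerin and does not signal as the classical receptors do.

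Of the 9 ligand genes, 8 lie on chromosome 11 (GRCm38, GENCODE annotation). *Ccl2* (11:82035571-82037453), *Ccl7* (11:82045712-82047525) and *Ccl12* (11:82101845-82103400) stand together on the plus strand. A gap of 1422 kb separates *Ccl12* from the next 5, which are *Ccl5* (11:83525778-83530518), *Ccl9* (11:83572919-83578636), *Ccl6* (11:83587882-83593087) and *Ccl3* (11:83647844-83649355) on the minus strand and *Ccl4* (11:83662584-83664683) on the plus strand. *Ccl9* and *Ccl6* are neighbours at 9.25 kb and *Ccl3* and *Ccl4* at 13.2 kb. *Ccl22* (8:94745590-94751699) and *Ccrl2* (9:111054486-111057519) lie elsewhere. *Ccl2* overlaps *Gm17268* and *Ccl6* overlaps *E230016K23Rik*, each on the opposite strand and with 0 exon bases shared.

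The 250 bases before the start site are shown for 4 ligand genes because these genes differ in what follows: *Ccl9* had an LPS response that differed between ages, *Ccl6*, its neighbour, the weakest response, *Ccl3* the highest level and *Ccl12* no detectable level without LPS. The sequences are those of RefSeq on GRCm38.p6, written 5′ to 3′ in the direction of the gene, and 6 of the 10 genes had an entry. Capitals mark each match to the kappaB pattern (GGG, any 2 bases, then TTTCC), the interferon response element or ISRE (TTTC, any 2 bases, then TTTC), C/EBP (TTGCNNAA) or AP-1 (TGANTCA) on either strand, or to TATAAA on the sense strand. The windows are chr11:83578637-83578886 for *Ccl9*, chr11:83593088-83593337 for *Ccl6*, chr11:83649379-83649628 for *Ccl3*, all on the minus strand, and chr11:82101595-82101844 on the plus strand for *Ccl12*.
Ccl9: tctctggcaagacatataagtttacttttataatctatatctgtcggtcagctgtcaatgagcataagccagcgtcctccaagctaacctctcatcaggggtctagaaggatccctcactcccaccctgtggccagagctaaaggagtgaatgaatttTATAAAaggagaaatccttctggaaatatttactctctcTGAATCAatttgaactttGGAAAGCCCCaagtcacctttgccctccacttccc
Ccl6: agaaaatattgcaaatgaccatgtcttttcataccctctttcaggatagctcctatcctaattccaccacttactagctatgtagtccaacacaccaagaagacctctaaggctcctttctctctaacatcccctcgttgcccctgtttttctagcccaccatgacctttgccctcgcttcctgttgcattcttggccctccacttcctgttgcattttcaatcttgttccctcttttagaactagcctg
Ccl3: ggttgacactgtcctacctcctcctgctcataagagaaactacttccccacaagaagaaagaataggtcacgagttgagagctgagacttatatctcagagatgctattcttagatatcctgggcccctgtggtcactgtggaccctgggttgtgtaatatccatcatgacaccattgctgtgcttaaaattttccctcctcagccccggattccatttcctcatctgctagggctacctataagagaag
Ccl12: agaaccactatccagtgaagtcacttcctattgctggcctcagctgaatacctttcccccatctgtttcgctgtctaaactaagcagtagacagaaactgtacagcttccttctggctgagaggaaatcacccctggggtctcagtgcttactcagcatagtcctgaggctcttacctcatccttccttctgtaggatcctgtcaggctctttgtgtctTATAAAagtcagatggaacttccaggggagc
The *Ccl9* window held a kappaB match on the opposite strand that begins 35 bases before the start (GGAAAGCCCC as printed), an AP-1 match beginning 53 bases before it (TGAATCA) and TATAAA beginning 92 bases before it. In the *Ccl12* window TATAAA begins 31 bases before the start. Windows of this length before all 32851 listed starts held the kappaB letters in 1.41%, the ISRE letters in 2.98%, the C/EBP letters in 9.56%, the AP-1 letters in 6.75% and TATAAA in 7.59%. The *Ccl6* and *Ccl3* windows held none of these letters, which says nothing of the factors or of sequence outside the window.

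Each library held 11371508 to 16829292 counts, and a count of 3, taken as the floor of detection, was worth 0.165 to 0.296 CPM (counts scaled by library size and TMM factor). Floors cover counting error only. Of 11 microglia and macrophage markers, all 11 exceeded the floor in every untreated library. Their summed level was 2675 to 3862 CPM in young and 2200 to 3395 CPM in aged untreated cultures, and 2900 to 4160 and 2418 to 3646 CPM with LPS. *P2ry12*, a defining microglial receptor, was low throughout, at 1.17 ± 0.57 CPM in young untreated cultures (SD, n = 5). Markers of astrocytes and fibroblasts stayed at or below the floor in all libraries, those of neurons summed to at most 0.413 CPM, of T cells to at most 0.276 CPM and of oligodendrocytes to at most 1.78 CPM, and 1 of 4 endothelial markers, *Kdr*, was above the floor throughout, at 102 ± 5.98 CPM in young and 75.0 ± 6.57 CPM in aged untreated cultures (SD, n = 5). Among the macrophage markers, *Aif1*, *Csf1r* and *Adgre1* were lower in aged than in young untreated cultures, and those 3 and *Ptprc* were lower under LPS, while *Tmem119* was higher under LPS. These marker differences move with the age comparisons given for the chemokines, and their part in them was not tested. In bulk RNA, fewer cells expressing a gene and less RNA per cell cannot be told apart.

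LPS raised 9 ligand and receptor genes at both ages, *Ccl6* only slightly and not under every scaling. The aged cultures reached lower levels than the young ones for most of the 9. Of the 9 genes that passed the filter on low counts (*Ccl22* did not), 9 were called higher with LPS in young cultures, where 31.2% of all 12799 genes tested were called higher, and 9 in aged cultures, where 27.5% were (edgeR's quasi-likelihood test, Benjamini-Hochberg adjusted p below 0.05, n = 5 per group). In young cultures the CPM ranges with and without LPS did not overlap for 8 of the 9 tested genes (all but *Ccl6*, 23.9% of all genes tested). In aged cultures they did not overlap for 9 of the 9 (21.0%). The ranges of the untested *Ccl22* overlapped in aged cultures only. *Ccl7*, *Ccl12* and *Ccrl2* passed the filter only through their LPS-treated libraries, so they could enter the counts of LPS responses in no other direction. The list was also chosen with earlier results of these data known. The 2 tested CC ligand genes outside it, *Ccl24* and *Ccl25*, were not called higher with LPS. Among LPS-treated cultures 7 of the 9 were called lower in aged ones, against 15.0% of all genes. *Ccl12*, 1 of these 7, did not pass the filter when only the aged groups were fitted. It entered through its young LPS-treated libraries, so the filter favoured the direction of its call. Among untreated cultures 1 of the 9 was called lower with age, against 7.81%, and the LPS response itself was called smaller in aged cultures for 1 of the 9, against 2.27%. The untested *Ccl22* and every tested gene are described in turn. Standard errors (SE) are the absolute log2 fold change over the square root of edgeR's F.

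**Figure D1:**
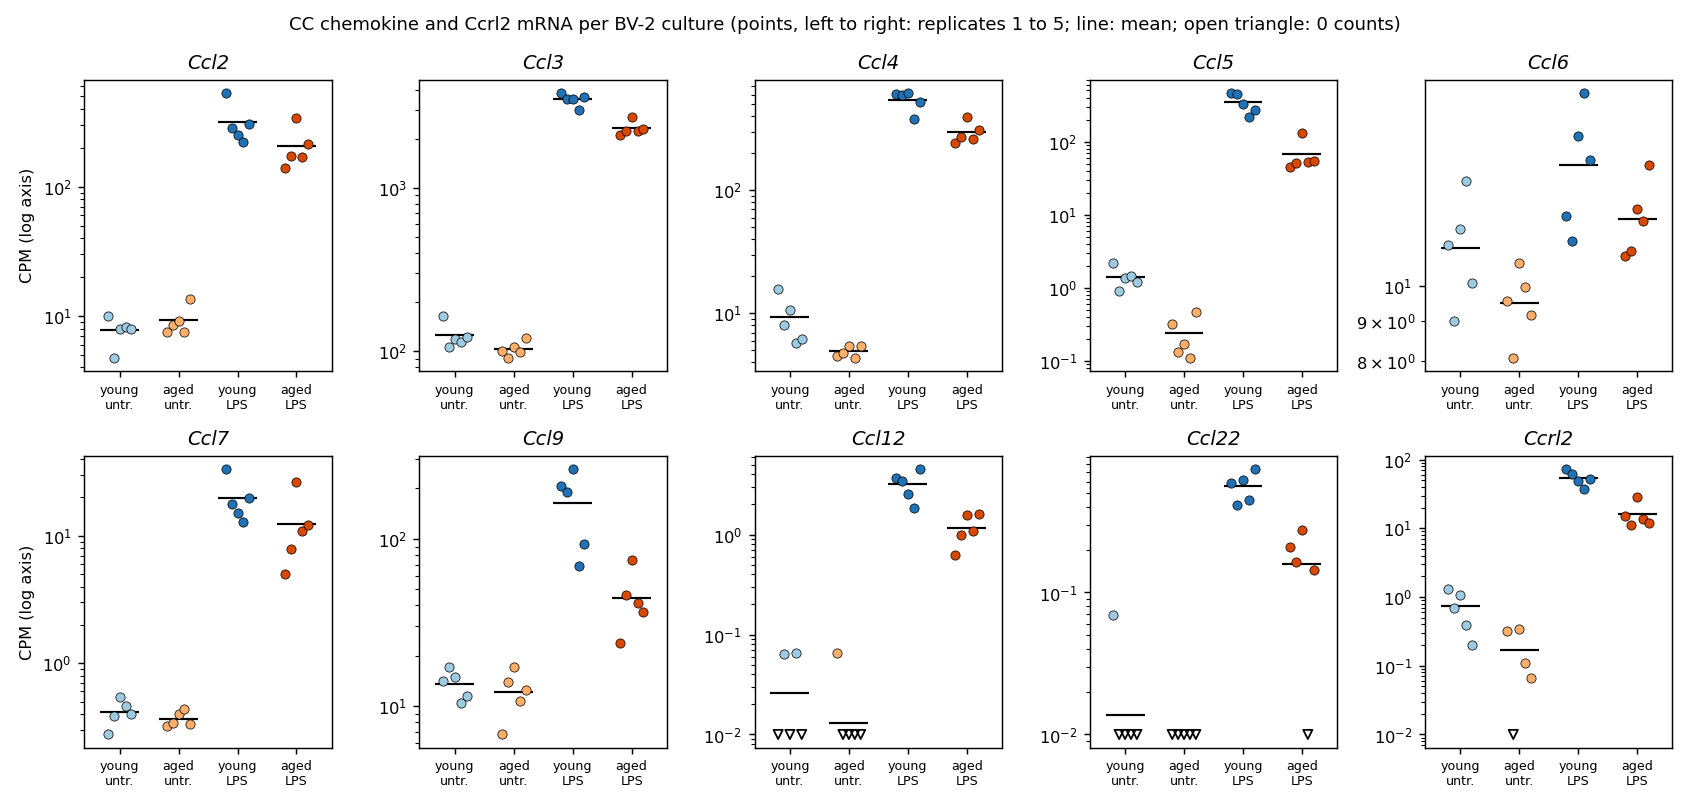
CPM (log axis, one scale per panel) of the 10 genes in each of the 20 cultures, with the points of a group ordered by replicate number, a line at the group mean and an open triangle at 0 counts. Points of LPS-treated cultures lie above those of untreated cultures of the same age in every panel but that of *Ccl6*, where the young groups overlap, and that of *Ccl22*, where 1 aged LPS-treated library held 0 counts.

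*Ccl3*, which encodes an attractant of macrophages and T cells, had the highest level per kilobase of exon among the 10 genes in all 4 groups. It stood at 163 ± 30.1 CPM per kb in young and 135 ± 14.4 in aged untreated cultures, and at 4542 ± 383 and 3023 ± 297 with LPS (SD, n = 5). In replicates 1 to 5, young untreated cultures held 165.0, 106, 119, 114 and 122 CPM, and young LPS-treated cultures 3809, 3509, 3479, 3008 and 3590 CPM. The aged cultures held 99.9, 90.5, 107, 99.0 and 120.1 CPM without LPS and 2116, 2215, 2704, 2234 and 2307 CPM with it. The LPS groups did not overlap the untreated ones at either age, every aged LPS-treated culture lay below every young one, and the untreated groups overlapped. LPS raised *Ccl3* by 4.80 on the log2 scale in young (SE 0.11, edgeR adjusted p = 5.5e-19) and by 4.49 in aged cultures (SE 0.11, edgeR adjusted p = 1.61e-18). The level under LPS was lower in aged cultures by a log2 value of -0.59 (SE 0.10, edgeR adjusted p = 8.63e-05), and was lower in 5 of 5 batches, by -0.85 to -0.36.

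*Ccl4*, the neighbour of *Ccl3* and likewise the gene of an attractant of macrophages and T cells, showed a difference of about the same size between ages with and without LPS. Its CPM in replicates 1 to 5 was 15.8, 7.98, 10.6, 5.73 and 6.25 in young and 4.52, 4.77, 5.47, 4.33 and 5.45 in aged untreated cultures. With LPS it was 604.7, 600.2, 618, 381 and 517 in young and 244, 272, 391, 262 and 307 in aged cultures. The untreated groups did not overlap, whereas under LPS the highest aged culture, replicate 3, lay above the lowest young one, replicate 4. *Ccl4* rose with LPS by 5.88 (SE 0.21, edgeR adjusted p = 3.04e-16) and 5.91 (SE 0.22, edgeR adjusted p = 9.7e-16) on the log2 scale in young and aged cultures. In aged cultures it was lower by -0.92 without LPS (SE 0.25, edgeR adjusted p = 0.0191) and by -0.88 with LPS (SE 0.16, edgeR adjusted p = 2.98e-04), and it was lower in 5 of 5 batches both times. The call without LPS was lost when young untreated replicate 1 (-0.65, adjusted p = 0.0722), young untreated replicate 3 (-0.86, adjusted p = 0.0523) or aged untreated replicate 4 (-0.87, adjusted p = 0.0517) was left out.

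*Ccl5*, which encodes an attractant of T cells and other leukocytes, had the largest LPS response at both ages among 8 of the 9 tested genes. The other, *Ccl12*, was at the floor in every untreated library. Under LPS *Ccl5* also had the largest difference between ages among the 9 tested. It ranked 13th among the 12799 genes in the LPS response of young cultures and 26th in that of aged cultures. In replicates 1 to 5 it held 2.21, 0.894, 1.39, 1.45 and 1.2 CPM in young and 0.323, 0.134, 0.171, 0.11 and 0.466 CPM in aged untreated cultures. With LPS these became 461, 448, 328, 215 and 271 CPM in young and 45.2, 51.5, 131, 52.8 and 54.8 CPM in aged cultures. No aged culture reached the lowest young culture of its treatment, and 3 of the 5 aged untreated libraries were at the floor, with 2 to 7 counts over all 5. The log2 LPS response was 7.92 in young (SE 0.36, edgeR adjusted p = 1.21e-14) and 8.11 in aged cultures (SE 0.48, edgeR adjusted p = 1.88e-12). The aged response and its rank rest on few untreated counts, with a median of 0.171 CPM beside a mean floor of 0.186 CPM. Under LPS the level was lower in aged cultures by -2.36 (SE 0.24, edgeR adjusted p = 3.84e-07), and within batches by -3.35 to -1.33. Without LPS the difference of -2.55 missed the threshold (SE 0.89, edgeR adjusted p = 0.0661), but passed it with the replicate number as a block (-2.55, adjusted p = 0.0463), in DESeq2 (adjusted p = 9.32e-06), with no filter, with only the groups compared and without aged LPS-treated replicate 3 (-2.55, adjusted p = 0.00796). Over the alternatives that kept all libraries the adjusted p ranged from 9.32e-06 to 0.0695, and with a library left out from 0.00796 to 0.144.

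*Ccl2* and *Ccl7*, neighbours that encode attractants of monocytes through CCR2, rose with LPS at both ages and differed less clearly between ages. *Ccl2* held 9.92, 4.72, 7.90, 8.30 and 7.91 CPM in young and 7.49, 8.47, 9.12, 7.52 and 13.6 CPM in aged untreated cultures, in the order of replicates 1 to 5. With LPS it held 532, 286, 251, 222 and 306 CPM in young and 139, 172, 344, 171 and 213 CPM in aged cultures. Young replicate 1 and aged replicate 3 stood highest in their groups, and the 2 LPS-treated groups overlapped. The log2 LPS response was 5.37 in young (SE 0.29, edgeR adjusted p = 2.21e-13) and 4.49 in aged cultures (SE 0.28, edgeR adjusted p = 4.69e-12). The level of *Ccl2* under LPS was lower in aged cultures by -0.62 (SE 0.22, edgeR adjusted p = 0.041) and in 4 of 5 batches, with batch 3 the other way at 0.45. This call was lost in DESeq2 (adjusted p = 0.0829), with library sizes alone (adjusted p = 0.059) and with only the groups compared (adjusted p = 0.102). It was also lost in 7 of the 20 fits with a library left out, those of young LPS-treated replicates 1 (-0.36, adjusted p = 0.185), 2 and 5 and of aged LPS-treated replicates 1, 2, 4 and 5 (-0.63 to -0.50, adjusted p = 0.0628 to 0.113 for the aged ones), while without aged LPS-treated replicate 3 it was -0.88 (adjusted p = 0.00168).

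*Ccl7* was close to absent without LPS, with 4 to 9 counts in a library, or 0.412 ± 0.0989 CPM in young and 0.366 ± 0.0507 CPM in aged cultures (SD, n = 5). In LPS-treated replicates 1 to 5 it reached 33.3, 17.8, 15.2, 12.8 and 19.9 CPM in young and 5.05, 7.91, 26.2, 10.9 and 12.1 CPM in aged cultures. As for *Ccl2*, young replicate 1 and aged replicate 3 were the highest, and the age groups overlapped. The response was 5.53 (SE 0.45, edgeR adjusted p = 3.07e-10) in young and 5.05 (SE 0.47, edgeR adjusted p = 5e-09) in aged cultures on the log2 scale. The age difference under LPS, -0.65 (SE 0.29), missed the threshold (edgeR adjusted p = 0.097). Without aged LPS-treated replicate 3 it was -1.13 (adjusted p = 6.02e-04), and batch 3 was the only 1 of 5 in which the aged culture was higher, by 0.79.

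*Ccl12*, the third gene of that cluster, was at the floor in all 10 untreated libraries, with 0 or 1 counts in each. In LPS-treated replicates 1 to 5 it held 3.65, 3.40, 2.55, 1.86 and 4.49 CPM in young and 0.631, 0.989, 1.58, 1.08 and 1.59 CPM in aged cultures, from 25 to 61 and from 9 to 23 counts. All aged LPS-treated cultures lay below all young ones. Set against the mean floor of the untreated libraries, *Ccl12* was at least 16.3-fold higher with LPS in young and at least 6.32-fold higher in aged cultures (edgeR adjusted p = 8.11e-11 and 7.06e-08). The difference between ages under LPS was -1.42 on the log2 scale (SE 0.26, edgeR adjusted p = 2.98e-04) and ran the same way in 5 of 5 batches. *Ccl12* passed the filter through its young LPS-treated libraries, which favoured this direction.

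*Ccl9*, which encodes a ligand of CCR1, was the one gene of the 9 whose LPS response was called different between ages. Without LPS the age groups overlapped, at 14.1, 17.1, 14.9, 10.5 and 11.4 CPM in young and 6.78, 14.1, 17.2, 10.7 and 12.4 CPM in aged replicates 1 to 5. With LPS it was 206, 190.2, 260.3, 69.2 and 93.4 CPM in young and 24.0, 46.1, 74.8, 41.6 and 36.4 CPM in aged cultures. Young replicates 4 and 5 were well below the other young cultures, and aged replicate 3 lay between them, so that the groups overlapped. *Ccl9* rose by 3.59 in young (SE 0.34, edgeR adjusted p = 3.03e-09) and by 1.86 in aged cultures (SE 0.34, edgeR adjusted p = 6.35e-05) on the log2 scale, that is 12.0-fold and 3.64-fold.

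The difference between the 2 responses of *Ccl9* was -1.72 (SE 0.47, edgeR adjusted p = 0.0285), the 16th lowest of the 12799 genes. It was below 0 in 5 of 5 batches, at -2.06, -1.77, -1.99, -0.76 and -1.48 in batches 1 to 5. Leaving out any 1 of 7 libraries put it above the threshold, at -1.70 to -1.49 (adjusted p = 0.0501 to 0.0633): young untreated replicate 4, young LPS-treated replicates 2 and 3, aged untreated replicates 2 and 3 and aged LPS-treated replicates 4 and 5. DESeq2 gave an adjusted p of 0.00965. Under LPS the level was lower in aged cultures by -1.88 (SE 0.30, edgeR adjusted p = 6.57e-05), and without LPS the difference was -0.15 (SE 0.36, edgeR adjusted p = 0.847).

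*Ccl6*, the gene next to *Ccl9* and likewise a ligand gene of CCR1, differed little between any of the groups. In replicates 1 to 5 it held 11.3, 9.00, 11.9, 13.7 and 10.1 CPM in young untreated and 12.3, 11.4, 15.6, 17.8 and 14.6 CPM in young LPS-treated cultures. The aged cultures held 9.56, 8.07, 10.7, 9.99 and 9.18 CPM without LPS and 10.9, 11.1, 12.6, 12.1 and 14.4 CPM with it. The young groups overlapped, and the aged groups were separated by a narrow gap. The LPS response was 0.36 in young (SE 0.12, edgeR adjusted p = 0.0128) and 0.36 in aged cultures (SE 0.12, edgeR adjusted p = 0.0175), and was above 0 in 5 of 5 batches at both ages. These 2 calls depended on the scaling. With library sizes alone in place of TMM they were lost, at 0.15 (adjusted p = 0.312) and 0.20 (adjusted p = 0.181), a scaling that moved the median of all genes by -0.22 and -0.16. The call in young cultures was also lost without young LPS-treated replicate 4 (0.28, adjusted p = 0.0549), and that in aged cultures without aged untreated replicate 2 (0.31, adjusted p = 0.0519) or aged LPS-treated replicate 5 (0.30, adjusted p = 0.0614). The age differences of -0.23 without LPS and -0.24 with it were not called (edgeR adjusted p = 0.246 and 0.167).

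*Ccl22*, which encodes a ligand of CCR4 on T cells, was too low to be tested. It held 6, 5, 9, 6 and 10 counts in young and 3, 2, 4, 0 and 2 counts in aged LPS-treated replicates 1 to 5, and 1 count in 1 of the 10 untreated libraries. The LPS-treated age groups did not overlap in CPM, at 0.562 ± 0.132 CPM in young and 0.159 ± 0.102 CPM in aged cultures (SD, n = 5). Against the floor it was at least 2.88-fold higher with LPS in young cultures, and in aged cultures its mean level was below the floor, so no fold is given. With no filter on low counts, edgeR called it lower in aged than in young LPS-treated cultures (log2 -1.74, SE 0.51, adjusted p = 0.0165). That fitted value is not a measured fold, because 4 of the 5 aged LPS-treated libraries were at or below the floor. The same fit called *Ccl22* higher with LPS in young (edgeR adjusted p = 1.48e-06) and in aged cultures (edgeR adjusted p = 0.00149).

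*Ccrl2*, the atypical chemerin receptor gene, is the one gene of the 10 that encodes no ligand. Untreated replicates 1 to 5 held 1.31, 0.702, 1.08, 0.395 and 0.2 CPM in young and 0.323, 0, 0.342, 0.11 and 0.0665 CPM in aged cultures, the latter from 0 to 6 counts with 3 of 5 at the floor. With LPS they held 72.2, 62.4, 48.2, 37.5 and 52.0 CPM in young and 15.4, 11.4, 28.4, 13.8 and 12.1 CPM in aged cultures. The untreated groups overlapped, and every aged LPS-treated culture lay below every young one. *Ccrl2* rose with LPS by 6.18 (SE 0.33, edgeR adjusted p = 1.89e-13) in young and by 6.49 (SE 0.45, edgeR adjusted p = 3.17e-11) in aged cultures on the log2 scale. The aged response rests on few untreated counts, whose mean of 0.168 CPM lay below the mean floor of 0.186 CPM. *Ccrl2* was lower in aged cultures under LPS by -1.74 (SE 0.22, edgeR adjusted p = 4.92e-06) and in 5 of 5 batches. The difference of -2.05 without LPS (SE 0.79) was not called (edgeR adjusted p = 0.0961), and was called in DESeq2 (adjusted p = 0.00361) and without aged LPS-treated replicate 3 (-2.05, adjusted p = 0.0347).

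**Figure D2:**
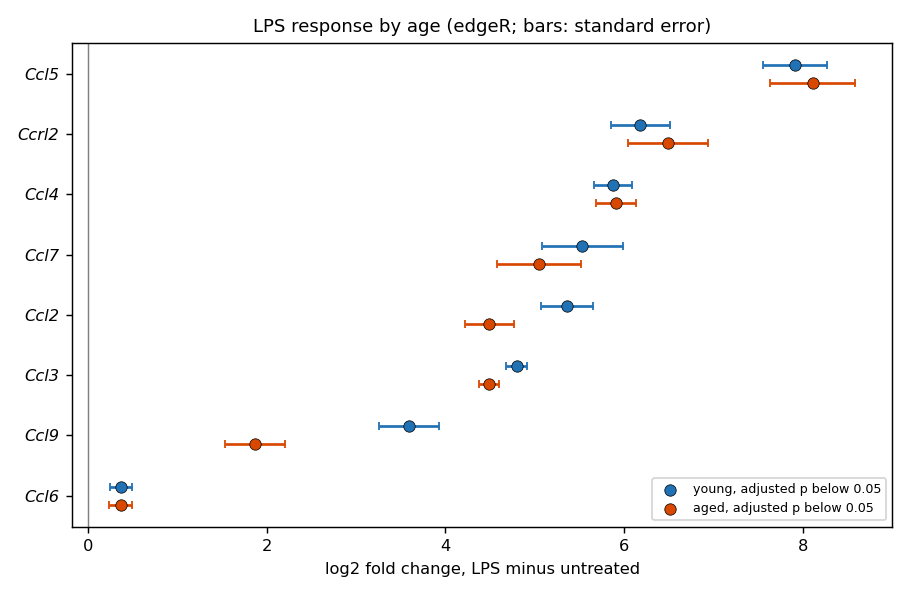
Log2 fold change of LPS-treated against untreated cultures (horizontal axis) for 8 genes in young and aged BV-2 cells, with bars of 1 SE. *Ccl12* is left out because its untreated libraries are at the floor. Young and aged responses lie closest together for *Ccl6* and *Ccl4*, and farthest apart for *Ccl9*, at 3.59 and 1.86.

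The LPS responses of the other genes were not called different between ages. The difference of the responses, aged minus young on the log2 scale, was 0.03 for *Ccl4* (SE 0.29), 0.20 for *Ccl5* (SE 0.88), 0.31 for *Ccrl2* (SE 0.78) and -0.0014 for *Ccl6* (SE 0.18), with edgeR adjusted p values from 0.893 to 0.999. The standard errors of *Ccl5* and *Ccrl2*, whose untreated counts are few, leave room for differences in either direction. *Ccl2* (-0.87, SE 0.39, edgeR adjusted p = 0.212) and *Ccl3* (-0.31, SE 0.14, edgeR adjusted p = 0.218) were lower and not called. *Ccl2* was called without aged LPS-treated replicate 3 (-1.13, adjusted p = 0.0364), and *Ccl3* without young untreated replicate 1 (-0.43, adjusted p = 0.0238). For *Ccl7* the value was -0.49 (SE 0.90, edgeR adjusted p = 0.844), and for *Ccl12* none is given because its untreated libraries were at the floor. The value for *Ccl3* was below 0 in 5 of 5 batches. The median over the 8 tested genes other than *Ccl12* was -0.16, beside 0.02 over all genes tested.

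**Figure D3:**
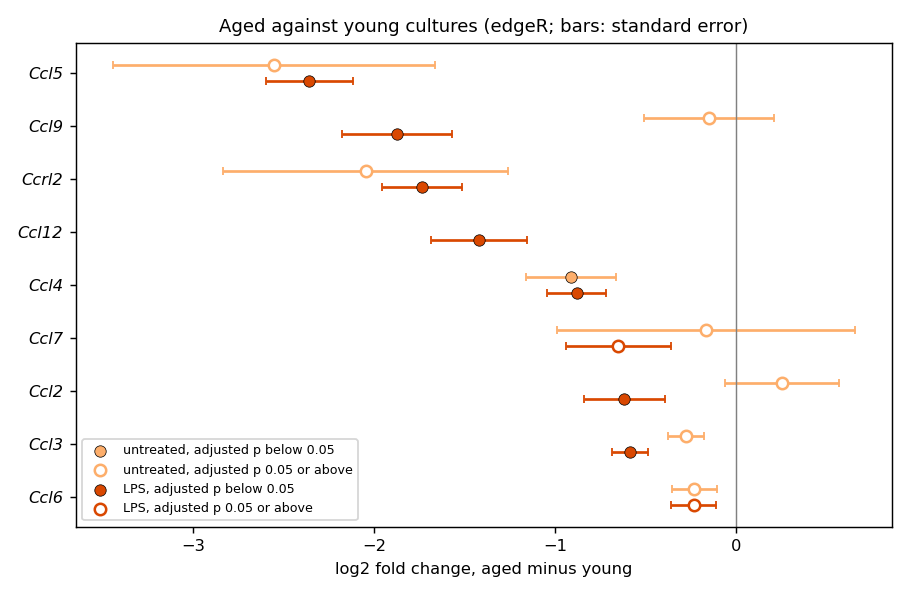
Log2 fold change of aged against young cultures (horizontal axis) for 9 genes, untreated and LPS-treated, with bars of 1 SE and filled points for an adjusted p below 0.05. *Ccl12* has no untreated value because both groups were at the floor. *Ccl5*, *Ccl9*, *Ccrl2* and *Ccl12* have the lowest LPS values, from -2.36 to -1.42, and *Ccl9* alone among the first 3 lies near 0 without LPS, at -0.15.

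Without LPS, *Ccl3* was lower in aged cultures by -0.28 (SE 0.10, edgeR adjusted p = 0.0746), below the young culture of its batch in 5 of 5 batches. It was called with the replicate number as a block (-0.27, adjusted p = 0.043), and without young untreated replicate 2 (-0.33, adjusted p = 0.0487) or aged untreated replicate 5 (-0.34, adjusted p = 0.0428). Without young untreated replicate 1, the highest of its group, the difference was -0.16 (adjusted p = 0.255). With the block 3 genes were called lower in aged untreated cultures, *Ccl3*, *Ccl4* and *Ccl5*, in place of *Ccl4* alone, and over all genes the share called lower was then 11.2% in place of 7.81%. *Ccl2* stood at 0.25 (SE 0.32, edgeR adjusted p = 0.682) and *Ccl7* at -0.17 (SE 0.82, edgeR adjusted p = 0.934). The ranges of the untreated age groups did not overlap for 2 of the 9 tested genes, lower in aged cultures (6.64% of all genes tested). Those of the LPS-treated groups did not overlap for 4 of the 9 tested genes, also lower in aged cultures (8.16%), and for the untested *Ccl22*. *Ccl12*, among these 4, passed the filter through its young LPS-treated libraries, which favoured this direction.

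The order of levels per kilobase of exon changed with LPS. In young untreated cultures *Ccl3* was followed at a distance by *Ccl4* (14.1 ± 6.27 CPM per kb), *Ccl2* (6.81 ± 1.66), *Ccl6* (6.24 ± 0.99) and *Ccl9* (4.46 ± 0.87), neighbours that overlapped in this order, and *Ccl5*, *Ccl7*, *Ccrl2*, *Ccl12* and *Ccl22* came below them. With LPS *Ccl5* moved up to the third place in young cultures (359 ± 113 CPM per kb), where its range overlapped that of *Ccl2* (281 ± 108). In aged LPS-treated cultures *Ccl2* had the third place (182 ± 70.7) and *Ccl5* the fourth (69.9 ± 37.4), again with overlap. *Ccl6* moved from the fourth place to the eighth in young cultures and to the seventh in aged ones, while its own level did not go down.

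The 9 ligand genes together held 0.0156% to 0.0228% of a library's counts in young and 0.0136% to 0.0174% in aged untreated cultures. With LPS they held 0.366% to 0.505% in young and 0.249% to 0.351% in aged cultures, so that the age groups did not overlap under LPS. *Ccl3* made up 67.3% to 81.9% of these counts over all LPS-treated cultures. Under LPS *Ccl5* accounted for 5.48% to 8.84% of the ligand counts in young cultures, as against 1.75% to 3.56% in aged ones. *Ccl4* accounted for 9.71% to 12.4% and 9.42% to 10.6%. The share of *Ccl5* therefore differed between ages without overlap, and that of *Ccl4* overlapped.

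Among LPS-treated cultures of the same group, most of these genes were high or low together. Some cultures were divided, with 5 of the 9 tested genes above the group mean in young and aged LPS-treated replicates 5 and in young untreated replicate 4. In aged LPS-treated replicate 3 all 9 tested genes were above their group mean, 7 of them the highest of the 5 cultures, with a median deviation of 0.80 on the log2 scale. In that library the median deviation over the 3218 genes called higher with LPS at both ages was 0.0083. Young LPS-treated replicate 4 was the lowest of its group for 8 of the 9 genes (median deviation -0.50), and aged LPS-treated replicate 1 for 8 of the 9 (median -0.44). Over these LPS-induced genes their median deviations were -0.039 and 0.013. That median stayed between -0.039 and 0.036 in all 20 libraries, because deviations are centred on the group mean and libraries are scaled on most genes. It therefore does not show whether such shifts are particular to the chemokine genes. Genes with LPS responses as large were not compared. Young LPS-treated replicate 1 was the highest for 5 of the 9 (median 0.44).

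**Figure D4:**
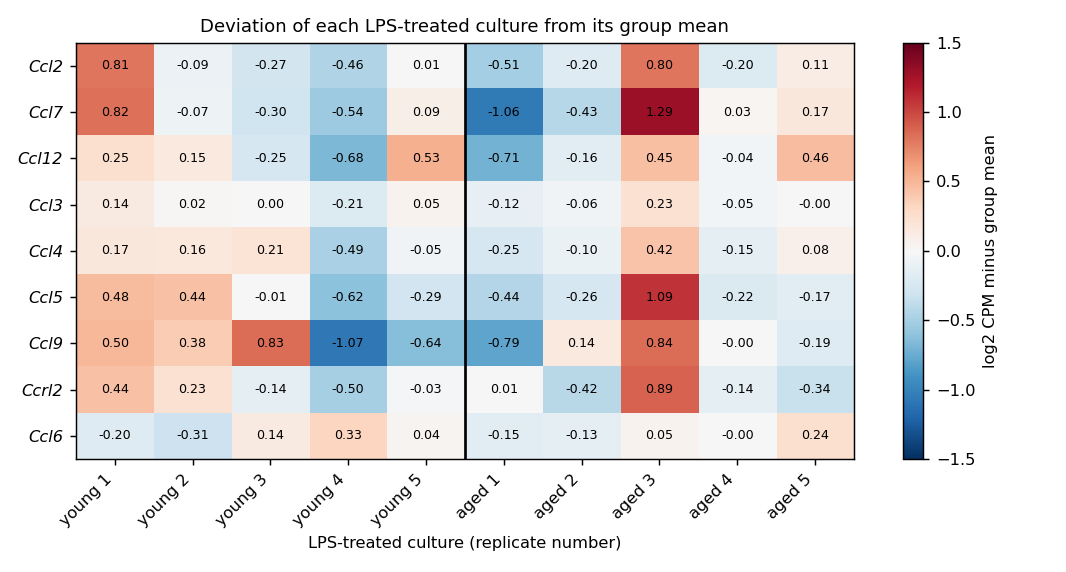
Deviation of each LPS-treated culture (columns) from the mean of its group in log2 CPM for 9 genes (vertical axis), with the value printed in each cell and colour from blue (lower) to red (higher). Aged replicate 3 is above the mean for every gene, by 0.05 for *Ccl6* up to 1.29 for *Ccl7*, and young replicate 4 is below it for all but *Ccl6*.

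As a description, the deviations from the group means over the 10 LPS-treated cultures had a Pearson r of 0.43 to 0.951 in the 28 of 36 pairs without *Ccl6*. The 5 highest were *Ccl2* with *Ccl7* (0.951), *Ccl3* with *Ccl4* (0.913), *Ccl2* with *Ccl3* (0.910), *Ccl5* with *Ccrl2* (0.907) and *Ccl3* with *Ccl7* (0.905). Without aged replicate 3 (9 cultures) these were 0.917, 0.862, 0.841, 0.760 and 0.812, and over all 20 cultures 0.689, 0.780, 0.781, 0.496 and 0.337. Over all 20 cultures the 28 pairs ranged from 0.13 (*Ccl4* with *Ccl12*) to 0.807 (*Ccl2* with *Ccl5*). *Ccl6* stood apart, with r between -0.43 and -0.03 to the other 8 genes over the 10 cultures. The genes of a pair share each library and its scaling, so these values are not independent of depth and preparation.

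Of 12 further CC ligand genes 2 were tested, and the other 10 reached at most 8 counts in a library. *Ccl24*, an attractant of eosinophils, fell with LPS in young (-1.09, SE 0.41, edgeR adjusted p = 0.0245) and in aged cultures (-1.48, SE 0.41, edgeR adjusted p = 0.00424), from 2.05 ± 0.80 to 0.945 ± 0.469 CPM in the former (SD, n = 5). *Ccl25*, known from the thymus and gut, stayed between 7.98 and 8.85 CPM in the group means. Of 14 receptor genes of CC chemokines 0 passed the filter, the highest counts in a library being 15 for *Ccr9* and 14 for *Ccr10*, so that their levels could not be compared at this depth. *Cmklr1*, the signalling receptor of chemerin, was tested and not called (0.50 with LPS in young cultures, SE 0.36, edgeR adjusted p = 0.234), and *Rarres2*, which encodes chemerin, reached at most 2 counts.

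Of 28 genes of Toll-like receptor 4 signalling 26 were tested. With LPS 18 were higher and 4 lower in young cultures (31.2% and 33.5% of all genes), with a median log2 fold change of 0.85 beside -0.01 over all genes. In aged cultures 17 were higher and 3 lower (27.5% and 26.9% of all genes), with a median of 0.73 beside 0.0005. Under LPS 18 of the 26 were lower in aged than in young cultures and 1 was higher (15.0% and 14.0% of all genes), with a median of -0.29 beside 0.01 over all genes. The largest rises in young cultures were in *Nfkbie*, which encodes an inhibitor of NF-kappaB (3.17 in young, SE 0.26, edgeR adjusted p = 2.55e-10, and 2.16 in aged cultures), and in *Cd14*, the LPS co-receptor (2.84, SE 0.21, edgeR adjusted p = 5.34e-11, and 2.77). *Tlr4*, the LPS receptor itself, fell in young (-1.04, SE 0.10, edgeR adjusted p = 2.37e-09) and aged cultures (-0.78), and *Ticam2*, an adaptor of it, fell by -1.01 and -0.60. For the 9 tested chemokine genes the median LPS response was 5.53 in young and 5.05 in aged cultures, or 5.37 and 4.49 with *Ccl12* at its lower bound, and the median age difference under LPS was -0.88.

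For each tested gene but *Ccl12*, the gene with the most similar set of 3 log2 fold changes was found by Euclidean distance. The 3 were age without LPS, LPS in young and LPS in aged cultures. The search covered 10875 genes whose mean log2 CPM was 1 or more. *Ccl12* is left out because its untreated libraries were at the floor. *Ccl3* lay nearest to *Clec4e*, a C-type lectin receptor gene (distance 0.12), and *Ccl7* to *Ptgs2*, which encodes the inducible prostaglandin synthase (0.217). *Ccl5* lay nearest to *Mx2*, an interferon-induced GTPase gene (0.427), *Ccl9* to *Stat2*, a transcription factor gene of the interferon response (0.38), and *Ccrl2* to *Ddx58*, an RNA sensor gene (0.572). The SE of the age difference without LPS was larger than the distance for *Ccl5* (0.89), *Ccl7* (0.82) and *Ccrl2* (0.79), whose untreated counts were few. *Ccl2* lay nearest to *Serpinb9b* (0.335), *Ccl4* to *Cdc42ep2* (0.368) and *Ccl6* to *A630089N07Rik* (0.0416). *Stat2* had log2 fold changes of 3.44 and 2.21 with LPS in young and aged cultures, beside 3.59 and 1.86 for *Ccl9*.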

How the data were processed

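RNA from 20 BV-2 cultures was sequenced by the authors from poly(A)-selected, stranded libraries. Per the labels and methods they aligned the reads to GRCm38 with STAR 2.6.1d and counted them per gene with featureCounts 1.5.1. They deposited raw counts per Ensembl gene, without normalization. The strand and multiple-alignment settings are not given in the sources used here, so counts of overlapping genes are uncertain. Columns were matched to samples by name, and symbols came from GENCODE (55227 of 55487 identifiers). Chemokine genes and gene lists were chosen with earlier results of these data known.

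Counts were tested with edgeR 4.0.16 (R 4.3.3): TMM, filterByExpr (12799 genes), all 20 libraries, group as the only factor, quasi-likelihood F-test, Benjamini-Hochberg adjustment over all genes tested and a threshold of 0.05. The methods of the study name DESeq2, used here as an alternative (1.42.0). CPM were computed on TMM-scaled library sizes. All listed genes were named by rule: every member, tested genes of the short lists, the Toll-like receptor 4 genes with the largest LPS responses, and the nearest gene of each tested member but *Ccl12*. Log2 deviations used a prior count of 2.

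Replicate numbers are batch numbers in the labels, with 1 culture of every group per batch, so they pair the cultures. Deviations from the group means correlated across genes at r = 0.26 and 0.276 between untreated and LPS-treated cultures of the same batch and age, and at 0.111 and 0.0425 between ages. Within groups the chi-square of a pair of libraries was 2.42 to 26.8 per degree of freedom, and no pair was counted as a duplicate. On simulated counts for aged against young untreated cultures with 200 genes changed 2-fold, edgeR found 175 of them (5 false calls, 12635 genes), the blocked edgeR fit 169 (2 false calls) and DESeq2 173 (19 false calls, 12799 genes). The simulated cultures were independent and had no batch effect, so these figures do not show how the blocked and unblocked fits compare on the real data. Each gene was simulated at its mean level over all 20 libraries, without an LPS effect, and the change was put into both aged groups. The figures therefore do not show how often changes are found in genes with few untreated counts, such as *Ccl5*, *Ccl7* and *Ccrl2*. Alternatives were DESeq2, the replicate block, other scalings and filters, only the groups compared, a threshold of 0.01 and each library left out. Python 3.11.15 with matplotlib 3.10.9, numpy 2.4.6 and pandas 2.3.3 served for summaries and plots. No protein sequences were used here.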

Additional observations from a re-analysis of the deposited data

Results flagged for a closer look

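Among 36 groups of 5 cultures in which a gene exceeded the floor, 5 held a culture that stood apart from the other 4 by Dixon's criterion (gap over range above 0.71). Chance gives about 1 in 20 groups where values are independent and normally distributed. The criterion was applied to CPM without logs, and most of these genes vary together between LPS-treated cultures, so the 5 cannot be set against that rate. All 5 cultures that stood apart were high. *Ccl5* in aged LPS-treated replicate 3 had 131 CPM beside 45.2 to 54.8 CPM in the others, and *Ccrl2* in the same culture had 28.4 CPM beside 11.4 to 15.4 CPM. *Ccl2* in young LPS-treated replicate 1 had 532 CPM beside 222 to 306 CPM, and in aged untreated replicate 5 it had 13.6 CPM beside 7.49 to 9.12 CPM. *Ccl3* in young untreated replicate 1 had 165.0 CPM beside 106 to 122 CPM.

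*Ccl9* was singled out because its LPS response differed between ages by the test of the difference itself, at -1.72 on the log2 scale (edgeR adjusted p = 0.0285). With the replicate number as a block it was -1.67 (adjusted p = 0.00686), and over the alternatives that kept all libraries it ranged from -1.74 to -1.66.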

How the results depend on the processing

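Of 1226 values of single genes under alternatives, 1160 kept their direction and their side of the threshold, 30 lost a call, 13 gained one and 23 turned in sign. All 23 were differences of LPS responses that were not called in any fit in which they turned: *Ccl6* at 0.0082 with the replicate block, 0.056 with library sizes alone and 0.00533 with no filter, and with a library left out *Ccl4* (-0.24 to 0.17), *Ccl5* (-0.20 to 0.55), *Ccl6* (-0.083 to 0.088) and *Ccl12* (-1.18 to 0.58, fitted values that estimate no difference because its untreated libraries were at the floor). The number of genes called lower in aged untreated cultures was 1 of 9 tested, beside 1475 of all 12799 genes called in either direction. It became 3 of 9 in DESeq2 (1737 of 13739), 3 of 9 with the replicate block (2204 of 12799) and 2 of 10 with no filter (1214 of 27197). With only the groups compared it was 2 of 6 (1676 of 12302). At a threshold of 0.01 it was 0 of 9 (622 of 12799), while 4 of 9 had an unadjusted p below 0.05. The replicate block changed no call beyond those of *Ccl3* and *Ccl5* without LPS. For the difference of responses the count of 1 of 9 (818 of 12799 genes in either direction) became 0 of 9 at a threshold of 0.01 (328 of 12799). An unadjusted p below 0.05 was found for 3 of 9. At least 10 counts in every library left 5 genes to test, of which 5 were called with LPS in young, 5 in aged cultures and 4 between ages under LPS. Of the 11012 genes then tested, 3640 were called higher with LPS in young and 3169 in aged cultures. Between ages under LPS 3418 were called in either direction. With a library left out, 9 genes were tested in every fit. The count ranged from 0 to 3 for untreated cultures, beside 954 to 1646 calls in either direction over all genes. It was 0 without young untreated replicate 1 or 3 or aged untreated replicate 4, and 3 without aged LPS-treated replicate 3. For the difference of responses it ranged from 0 to 2, beside 554 to 1069 calls. The 2 were found without young untreated replicate 1 or aged LPS-treated replicate 3. For LPS it ranged from 8 to 9 at either age, beside 3841 to 4023 higher calls in young and 3280 to 3588 in aged cultures. For age under LPS it ranged from 6 to 8, beside 2952 to 3937 calls in either direction. These fits tested 12885 to 12911 genes, and 34 of 45 comparisons kept their call or its absence in every one. Scaling by library size alone moved the share of higher calls among all genes from 48.2% to 27.3% for LPS in young, from 50.6% to 28.4% in aged cultures, from 32.2% to 42.2% and from 48.3% to 70.1% for age without and with LPS, and from 64.4% to 81.3% for the difference of responses. Depth limits *Ccl12*, *Ccl22*, and untreated *Ccl5*, *Ccl7* and *Ccrl2*, whose counts per library were few.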
